A study of Saccharomyces cerevisiae with 4 samples.

Results

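The 60S assembly factors are the proteins that build the large (60S) ribosomal subunit of budding yeast (Saccharomyces cerevisiae) around precursor ribosomal RNA and then leave it. The 60 genes described here were chosen by name, from what their products do in the nucleolus, the nucleoplasm and on the way to the cytoplasm, and lie outside chromosome X. All 60 were found among the 7126 features counted, and all 60 passed the filter on low counts that left 6139 genes for testing. Polyadenylated RNA was sequenced from a strain with the ulp1-I615N allele (MH1018) and from its wild type (MH1006), with 2 libraries for each. ULP1 encodes the protease that matures SUMO, a small protein that is attached to other proteins, and removes it from them. Both strains were of mating type a and carried lys1::kanMX4, ade3-delta, ade2-delta, trp1-289, ura3-52 and both the leu2-3 and the leu2-112 mutation. Cells were taken in the middle of logarithmic growth in YPD, a rich glucose medium, at 30 °C. The mutant is represented by 1 strain, and the labels do not state that the replicates were separate cultures, so the p-values speak only of how far these libraries spread, and that spread may be technical.

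The large subunit forms in the nucleolus, where RNA helicases, methyltransferases and many scaffold proteins fold a long precursor RNA with the first ribosomal proteins. A cluster of factors then prepares the removal of an internal spacer, GTPases and a giant ATPase remodel the particle in the nucleoplasm, and export factors carry it through the nuclear pore. Cytoplasmic factors finally strip off the remaining assembly proteins. In yeast these genes belong to the ribosome biogenesis regulon, a group of genes known to be transcribed together according to growth conditions, and conjugation of SUMO is known to be linked to the formation and export of these particles.

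Counted fragments per library came to 13244131 and 26723470 in the mutant and 15448419 and 19346393 in wild type. ULP1 itself had 1116 and 2061 counts in the mutant and 1118 and 1213 in wild type and was not called different (log2 fold change 0.12, edgeR adjusted p = 0.193), which does not test a point mutation. LYS1 had at most 5 counts in any library, whereas ADE2 and ADE3, which the labels list as deleted in both strains, had 1368 counts or more in each. Genes of chromosome X were higher in both mutant libraries, with a median log2 fold change of 0.73 over 373 genes, and the chromosome held 9.13% and 9.16% of mutant counts and 5.58% and 5.58% of wild-type counts. The ULP1 allele and the raised chromosome X cannot be told apart in this comparison. STE2, the pheromone receptor of a cells, averaged 418 CPM in the mutant and 475 CPM in wild type, and STE3, the receptor of the other mating type, 5.81 and 3.84 CPM, where CPM are counts made comparable between libraries by scaling. Levels are relative to all polyadenylated transcripts of a library, so a change of the total amount of messenger RNA per cell is not visible in them, and in bulk RNA fewer cells with a transcript and less of it per cell cannot be told apart.

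Each of the 60 listed 60S assembly factor transcripts was lower in the ulp1-I615N strain than in wild type. The list was drawn up with earlier results of these data known, and other genes of 60S assembly, described below, fell less uniformly. Of the 60 genes, 60 fell, 0 rose and 0 were left uncalled at an adjusted p under 0.05, from the quasi-likelihood test of edgeR with p-values adjusted by Benjamini and Hochberg's method over all 6139 genes, whereas 24.3% of all tested genes were lower and 26.4% were higher. At an unadjusted p under 0.05, and with DESeq2 or limma-voom in place of edgeR, 0 of the genes were higher as well. The median log2 fold change was -0.62, a level 1.54-fold lower than in wild type, beside a median of 0.01 over all tested genes. The falls were moderate and of similar size, from -0.39 for MAK11 to -1.24 for DBP2, with an interquartile range from -0.70 to -0.54. The SD over the genes was 0.14 on this log2 scale, beside 0.54 over all tested genes and 0.50 over those outside chromosome X. The members had at least 749 counts in each library and standard errors of at most 0.11. Tested genes reached down to 0 counts in a library and up to a standard error of 1.63, so these spreads are not directly comparable. A fall of at least 1.5-fold was called for 37 of the 60 (61.7%), beside 4.45% of all tested genes, and 1, DBP2, fell more than 2-fold.

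The groups did not overlap for any of the genes: both mutant libraries lay below both wild-type libraries in 60 of 60, as they did for 36% of all tested genes. The gap between the higher mutant and the lower wild-type library ran from 0.23 for RRP15 to 1.08 for DBP2 on the log2 scale. The members' median log2 ratio to the wild-type mean was -0.61 in mutant replicate 1 and -0.64 in mutant replicate 2, and between the wild-type libraries it was 0.06 (replicate 2 over replicate 1). Together the transcripts held 1.19% and 1.14% of all counts in the mutant libraries, against 1.67% and 1.68% in the wild-type libraries. The mean share was 1.16 ± 0.0372% in the mutant and 1.68 ± 0.00556% in wild type (SD, n = 2 each), a ratio of 0.694. For this share an exact permutation test over 2 libraries against 2 gives a two-sided p of 0.333, the smallest that the design allows. Without the counts of chromosome X in the total, the ratio was 0.721. When only library totals were used for scaling, the all-gene median was 0.13 higher and 28.1% of the calls over all genes were lower instead of 47.9%, while the 60 assembly factor genes all stayed lower, at a median of -0.49.

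**Figure D1:**
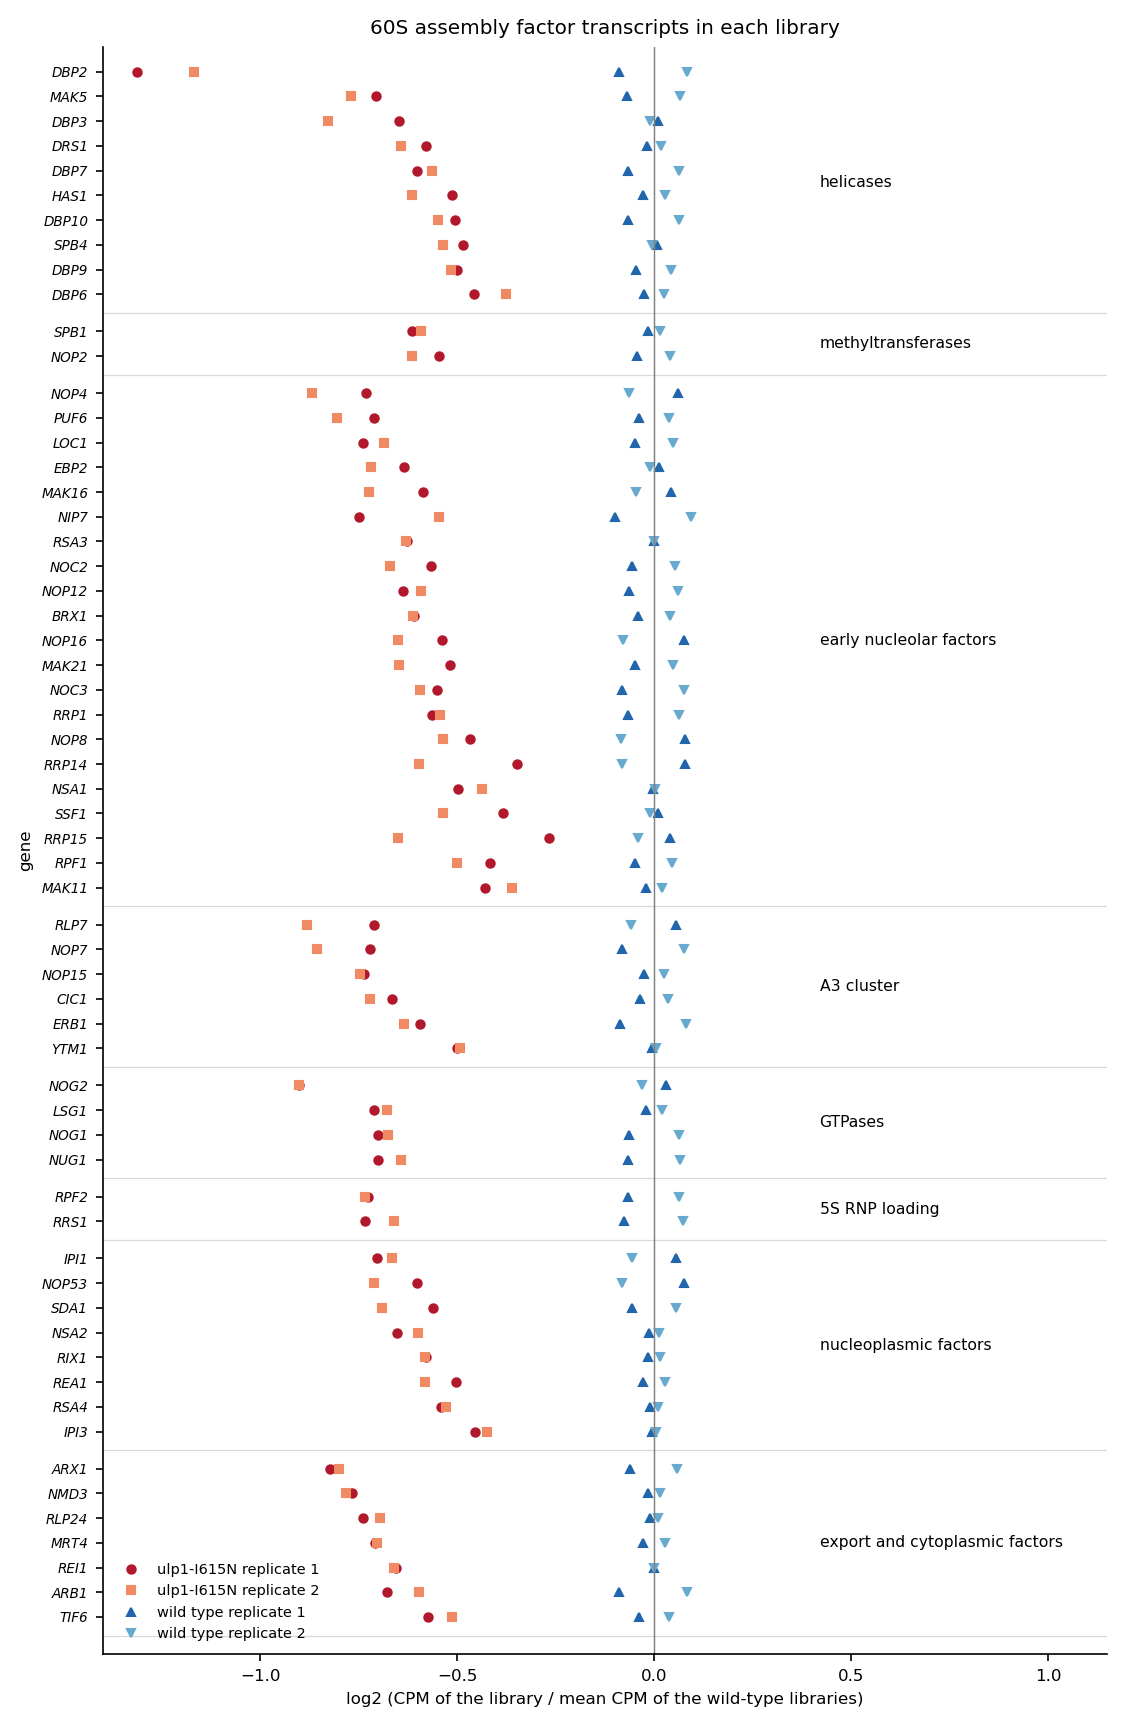
Level of each of the 60 transcripts in each library, as the log2 ratio of CPM to the mean of the wild-type libraries, grouped by role; circles and squares are the mutant libraries and triangles the wild-type libraries. Both mutant symbols lie left of both wild-type symbols in every row, farthest for DBP2 and NOG2.

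**Figure D2:**
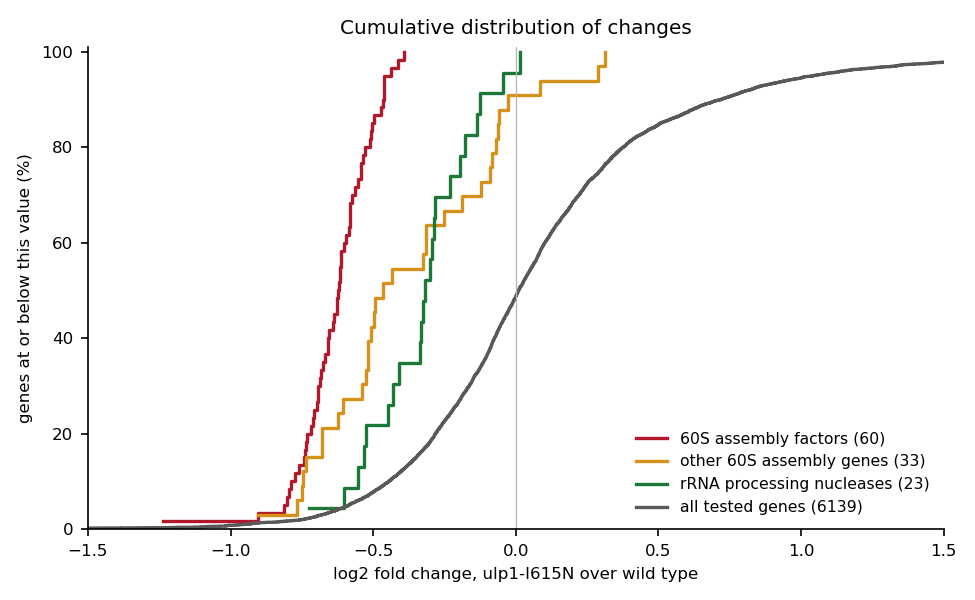
Cumulative share of genes (percent) by log2 fold change, for the 60S assembly factors, 33 other genes of 60S assembly, 23 genes of nucleases and cofactors that process ribosomal RNA, and all 6139 tested genes, of which 148 lie beyond the ends of the axis. The curve of the assembly factors ends at -0.39, left of 0, and is the steepest of the 4.

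The genes share promoter sequence, which was not itself used to choose them. However, they were chosen with earlier results of these data known. Tested genes that are not members but hold these motifs were often lower too, as given below. The shared sequence is therefore not independent of the falls. Ribosome biogenesis genes of yeast are known for a pair of promoter motifs, PAC (bound by Tod6 and Dot6) and RRPE (bound by Stb3). Both were searched on both strands in the 250 bases before the coding start, PAC as GCGATGAG with the core GATGAG inside it and RRPE as the core AAAAATTTT with and without TG directly before it (RRPE and RRPE core in what follows). The PAC core stood before 53 of 60 genes (88.3%), beside 17.0% of 6001 protein-coding promoters, and the RRPE core before 43 (71.7%), beside 6.73%. The longer forms were found before 35 genes for PAC (58.3%, beside 3.83%) and 18 for RRPE (30%, beside 2.35%). Both cores occurred together before 37 genes (61.7%, beside 3.35%), and 1 gene, MAK11, had neither. The stretches that hold both cores follow, 5′ to 3′, for the gene of each role group that fell most among those with both, with matches to either motif in capitals (CTCATC and AAAATTTTT are the cores read on the other strand).
DBP2, chrXIV:413472-413514, plus strand: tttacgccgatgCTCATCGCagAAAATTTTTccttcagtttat
NOG2, chrXIV:723265-723305, minus strand: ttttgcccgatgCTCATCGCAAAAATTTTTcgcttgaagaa
ARX1, chrIV:657530-657598, minus strand: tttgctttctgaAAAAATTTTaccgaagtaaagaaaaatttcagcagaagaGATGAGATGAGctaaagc
RLP7, chrXIV:627225-627293, minus strand: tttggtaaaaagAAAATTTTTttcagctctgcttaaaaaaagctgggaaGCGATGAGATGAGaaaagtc
PUF6, chrIV:1443485-1443531, minus strand: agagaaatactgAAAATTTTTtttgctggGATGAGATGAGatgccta
RPF2, chrXI:592643-592692, minus strand: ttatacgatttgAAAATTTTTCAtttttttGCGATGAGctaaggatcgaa
NSA2, chrV:414293-414340, minus strand: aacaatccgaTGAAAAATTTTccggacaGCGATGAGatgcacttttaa
NOP2, chrXIV:510385-510426, plus strand: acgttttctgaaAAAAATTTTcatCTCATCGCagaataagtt

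These stretches were read from the RefSeq R64 genome (sacCer3) in the direction of each gene. In them the RRPE core and the PAC core lie close together. This closeness is partly set by the choice of stretch, since the pair of cores with the shortest span was taken for each gene. In DBP2, NOG2 and NOP2 fewer than 5 bases separate the cores, and in ARX1 and RLP7 a longer spacer does. In ARX1, RLP7 and PUF6 the PAC core is repeated so that copies share bases. Over all members the base of the PAC core nearest the coding start lay 48 to 238 bases before it (median 115, 85 matches) and that of the RRPE core 78 to 240 bases before it (median 135, 59 matches). The size of the fall differed little with these motifs: the median log2 fold change was -0.64 for the 37 genes with both cores and -0.60 for the other 23, while MAK11, without either, had the smallest fall of the 60. Of 162 tested genes with both cores that are not members, 124 were lower (76.5%) and 6 were higher, with a median of -0.44. Of the 4607 with neither core 20.3% were lower, with a median of 0.04. A single core marked a fall less sharply. Of 912 such genes with the PAC core, whatever else they held, 365 were lower (40.0%) and 196 higher, at a median of -0.10. Of 356 with the RRPE core 230 were lower (64.6%) and 36 higher, at a median of -0.30. A match to these letters is a description of the sequence and does not show that a factor is bound.

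**Figure D3:**
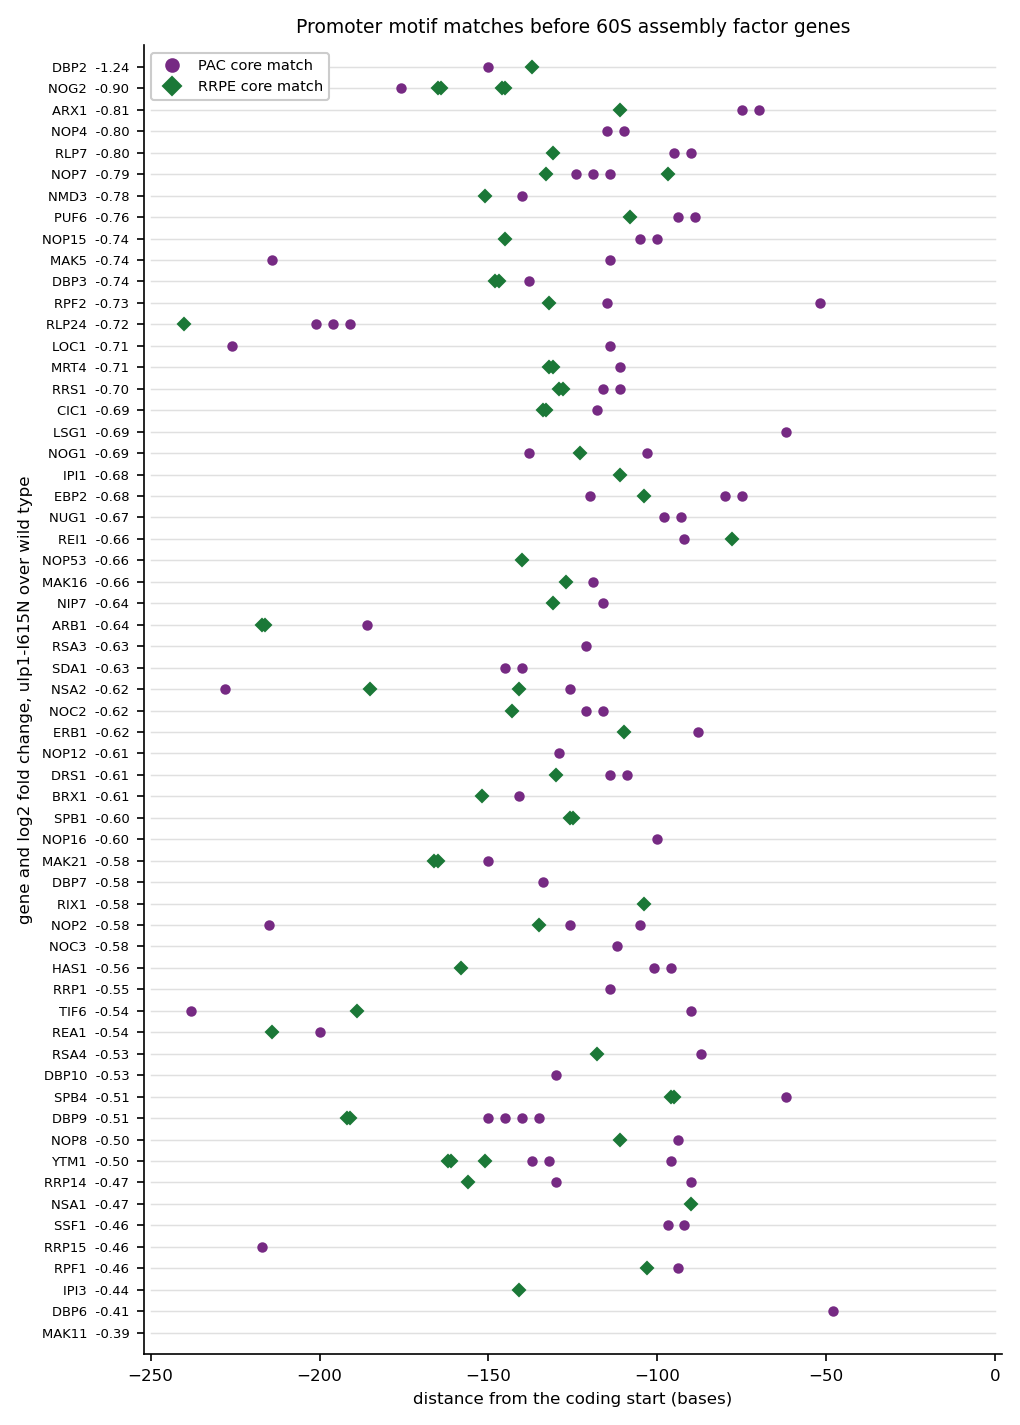
Matches to the PAC core (circles) and the RRPE core (diamonds) in the 250 bases before the coding start of each of the 60 genes, by distance in bases from that start, with genes ordered by log2 fold change from DBP2 to MAK11. Most matches lie between about 90 and 150 bases before the start, and the row of MAK11 is empty.

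The DEAD-box RNA helicases, which unwind or rearrange precursor RNA in the nucleolus, held the largest single fall. Of 10 helicase genes 10 fell, with a median of -0.57, beside 24.3% lower and 26.4% higher over all tested genes. The same shares stand beside the count of each role group below. These groups divide the 60 members, all of them lower, so their counts add nothing to that result. DBP2 (YNL112W, chromosome XIV, 413639 to 416281), whose helicase also acts in transcription and in the decay of faulty messenger RNA, had 289 and 319 CPM in the mutant libraries, against 675 and 761 CPM in the wild-type libraries. The higher mutant library was below the lower wild-type library by more than 2-fold. The means were 304 ± 21.2 and 718 ± 61.3 CPM (mutant and wild type, SD, n = 2 each), a level 2.36-fold lower in the mutant (log2 fold change -1.24 ± 0.08 SE, edgeR adjusted p = 4.89e-09). DBP2 ranked 20 among all 6139 tested genes when these were ordered from the largest fall, against 80 for NOG2, the next member. Its transcript is spliced, as is that of NOG2, and these are the 2 members annotated with more than 1 exon. MAK5 (YBR142W), a helicase needed for an early pre-60S particle, had 145 and 138 CPM in the mutant and 225 and 247 CPM in wild type (-0.74 ± 0.06). DBP3 (YGL078C), a helicase that helps cleavage in the first internal spacer, had 319.7 and 282 CPM in the mutant and 505 and 497 CPM in wild type (-0.74 ± 0.07). The other helicase genes, DRS1, DBP7, HAS1, DBP10, SPB4, DBP9 and DBP6, fell by 0.61 to 0.41 on the log2 scale in that order, so DBP2 fell farthest and DBP6 least.

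Both methyltransferase genes fell to about the same extent. NOP2 (YNL061W, chromosome XIV, 510540 to 512396), the gene of the enzyme that methylates a cytosine of 25S ribosomal RNA, had 318 and 303 CPM in the mutant libraries and 450.0 and 477 CPM in the wild-type libraries (log2 fold change -0.58 ± 0.07 SE, edgeR adjusted p = 2.60e-06). SPB1 (YCL054W), the gene of a ribose methyltransferase of the same RNA, had 247 and 250.3 CPM in the mutant and 374 and 382 CPM in wild type (-0.60 ± 0.06). In neither gene did a mutant library reach a wild-type library.

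The early nucleolar factors, 21 genes of RNA-binding and scaffold proteins that act on the first pre-60S particles, included the smallest fall of the 60, that of MAK11. All 21 were lower, from -0.80 to -0.39 (median -0.60). NOP4 (YPL043W, chromosome XVI, 469939 to 471996), the gene of a protein with several RNA recognition motifs, had 190.4 and 173 CPM in the mutant and 329.6 and 302 CPM in wild type (-0.80 ± 0.07, edgeR adjusted p = 1.02e-07). PUF6 (YDR496C) encodes a Pumilio-family protein that also represses translation of the ASH1 messenger RNA, and it had 217 and 203 CPM in the mutant and 346 and 364 CPM in wild type (-0.76 ± 0.06). For LOC1 (YFR001W), whose product likewise takes part in ASH1 messenger RNA localisation, the values were 64.2 and 66.6 CPM in the mutant and 104 and 111 CPM in wild type (-0.71 ± 0.07). SSF1, RRP14 and RRP15, which form a complex, had nearly equal values, -0.46 ± 0.07, -0.47 ± 0.08 and -0.46 ± 0.11 on the log2 scale. The early factors of other complexes covered a wider range. In the complex of NSA1, RPF1, MAK16 and RRP1 the values were -0.47, -0.46, -0.66 and -0.55, with MAK16 lowest. MAK21 and NOC2, partners in the earlier of a pair of Noc complexes, were at -0.58 and -0.62, and NOC3, the partner of NOC2 in the later one, at -0.58.

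RRP15 was the member with the least certain value. It had 59.9 and 45.9 CPM in the mutant libraries, which differed by 0.38 on the log2 scale, the largest difference between mutant libraries of any member, and 74.2 and 70.1 CPM in the wild-type libraries. Its adjusted p of 0.00401 (edgeR) was the highest of the 60, and the log2 fold change was -0.27 without mutant replicate 2 and -0.65 without mutant replicate 1. The antisense feature YPR142C overlaps it by 371 bases and had at most 4 counts in any library. Fragments in the shared stretch were not counted for either gene, so this low count does not show how much antisense RNA was present. The remaining early factors EBP2, NIP7, RSA3, NOP12, BRX1, NOP16 and NOP8 fell by 0.68 to 0.50 in that order, and MAK11 had 102 and 107 CPM in the mutant and 136 and 139.6 CPM in wild type (-0.39 ± 0.06, edgeR adjusted p = 7.96e-05). With library totals only, MAK11 was at -0.26. Even for MAK11 the mutant libraries stayed below both wild-type libraries.

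The A3 cluster, a set of factors that depend on each other for binding and prepare the removal of spacer RNA, had a median log2 fold change of -0.72, and all 6 of its genes were lower. RLP7 (YNL002C, chromosome XIV, 626174 to 627142), which encodes a nucleolar relative of the ribosomal protein Rpl7, had 234 and 209 CPM in the mutant and 399 and 369 CPM in wild type (-0.80 ± 0.07, edgeR adjusted p = 1.77e-07). For NOP7 (YGR103W) the values were 369 and 335 CPM in the mutant and 574 and 641 CPM in wild type (-0.79 ± 0.08). NOP15 (YNL110C), an RNA-binding protein gene, had 126 and 125 CPM in the mutant and 206 and 213 CPM in wild type (-0.74 ± 0.06), and CIC1 was at -0.69. Nop7 works in a stable complex with Erb1 and Ytm1, and their genes were at -0.79 ± 0.08 for NOP7, -0.62 ± 0.07 for ERB1 and -0.50 ± 0.06 for YTM1. YTM1 had the smallest change of the cluster, with 151 and 152 CPM in the mutant and 213 and 215 CPM in wild type, and its groups were still apart. The differences between these genes were not tested.

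All 4 GTPase genes fell, with a median log2 fold change of -0.69. NOG2 (YNR053C, chromosome XIV, 721120 to 723112), the gene of a nucleoplasmic GTPase whose place on the particle is later taken by Nmd3, had 214 and 214 CPM in the mutant libraries and 409 and 392 CPM in the wild-type libraries. This was a level 1.87-fold lower (-0.90 ± 0.06, edgeR adjusted p = 1.04e-08), the second largest fall of the 60 members. The intron of NOG2 holds the small nucleolar RNA gene snR191, which had 68 and 86 counts in the mutant and 125 and 130 in wild type, few beside the counts of NOG2. LSG1 (YGL099W), a cytoplasmic GTPase that frees the export adapter Nmd3, had 118 and 121 CPM in the mutant and 191 and 196 CPM in wild type (-0.69 ± 0.06). NOG1 (YPL093W), which places its tail in the tunnel that nascent proteins leave by, had 346 and 353 CPM in the mutant and 538 and 588 CPM in wild type (-0.69 ± 0.07), and NUG1 was at -0.67. Apart from NOG2, the GTPase genes were within a few hundredths of each other on the log2 scale.

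RPF2 and RRS1, whose products bring the 5S ribosomal RNA with its proteins Rpl5 and Rpl11 into the particle, fell together. RPF2 (YKR081C, chromosome XI, 591506 to 592540) had 165 and 164 CPM in the mutant and 261 and 285 CPM in wild type (-0.73 ± 0.06, edgeR adjusted p = 1.14e-07). RRS1 (YOR294W) had 98.5 and 104 CPM in the mutant and 155 and 172 CPM in wild type (-0.70 ± 0.07). Both pairs of mutant libraries lay close together and below wild type.

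The nucleoplasmic factors, which remodel the particle before export, had a median log2 fold change of -0.60, and all 8 were lower. IPI1 (YHR085W, chromosome VIII, 276764 to 277768), of the complex formed with Rix1 and Ipi3, had 53.5 and 55.0 CPM in the mutant and 90.5 and 83.8 CPM in wild type (-0.68 ± 0.07, edgeR adjusted p = 1.23e-06). Its partner genes RIX1 and IPI3 were at -0.58 ± 0.06 and -0.44 ± 0.06, and that of IPI3 was the smallest fall of the group. NOP53 (YPL146C), whose product brings the exosome to the spacer RNA, had 154 and 143 CPM in the mutant and 247 and 221 CPM in wild type (-0.66 ± 0.07). SDA1 (YGR245C), a gene needed for nuclear maturation of the subunit, had 284 and 259.8 CPM in the mutant and 403 and 436 CPM in wild type (-0.63 ± 0.07). REA1, the giant ATPase also called MDN1, and RSA4, the factor it pulls off the particle, fell by nearly the same amount, -0.54 and -0.53, and NSA2 was at -0.62.

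The export and cytoplasmic factors had a median of -0.71, and all 7 genes were lower. ARX1 (YDR101C, chromosome IV, 655686 to 657467), an export factor that binds at the end of the protein exit tunnel, had 193 and 196 CPM in the mutant and 327 and 355 CPM in wild type (-0.81 ± 0.06, edgeR adjusted p = 4.67e-08). NMD3 (YHR170W), the gene of the adapter for the export receptor Crm1, had 194 and 192 CPM in the mutant and 326 and 333 CPM in wild type (-0.78 ± 0.06). RLP24 (YLR009W), which holds the place of ribosomal protein Rpl24 until the particle reaches the cytoplasm, had 152 and 157 CPM in the mutant and 252 and 256 CPM in wild type (-0.72 ± 0.06). In these genes the mutant libraries differed little from each other. MRT4, which holds the place of the stalk protein Rpp0, was at -0.71, REI1, which releases Arx1, at -0.66, the ABC-family ATPase gene ARB1 at -0.64 and TIF6, whose product keeps the subunits apart, at -0.54, the smallest fall of the group.

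Relatives of the members showed where the falls extended beyond these genes and where they did not. REI1 has a diverged paralog, REH1, whose coding sequence is 48.0% identical in a global alignment. REI1 had 82.3 and 82.0 CPM in the mutant and 129.6 and 129.7 CPM in wild type, while REH1 had 153 and 141 CPM in the mutant and 123 and 117 CPM in wild type. The libraries thus moved in opposite directions for this pair, with REI1 falling by 0.66 ± 0.06 SE and REH1 rising by 0.29 ± 0.07 on the log2 scale (edgeR adjusted p = 3.38e-07 and 0.00164). SSF1 and SSF2 are 92.1% identical, with shared runs of up to 92 bases, so fragments inside such runs may not have been counted for either, and the counts of both are uncertain. They fell alike, at -0.46 and -0.52. Among placeholders, RLP24 was at -0.72, against -0.50 and -0.38 for RPL24A and RPL24B, and MRT4 was at -0.71, against -0.38 for RPP0. RLP7 was at -0.80, between the ribosomal protein genes RPL7A at -0.41 and RPL7B at -0.96. RPL7A and RPL7B, and RPL24A and RPL24B, are pairs of near-identical copies, so their counts are uncertain.

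Levels in wild type, which can be compared between genes only per length, ran from 48.0 CPM per kb for REA1 to 507 for TIF6, with a median of 174. In the mutant the same genes marked the ends, at 33.0 and 348 CPM per kb. The order was kept for TIF6, MRT4 and ARB1, the most abundant transcripts in both strains, whereas DBP2 took place 13 in the mutant and place 4 in wild type, at 185 and 438 CPM per kb. More abundant members tended to fall more: across the 60 genes Spearman's rho between the wild-type level per kb and the log2 fold change was -0.58, and across all 6139 tested genes it was -0.38. These are correlations across genes of the same 4 libraries, in which the wild-type level enters both axes, and genes are not independent replicates.

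**Figure D4:**
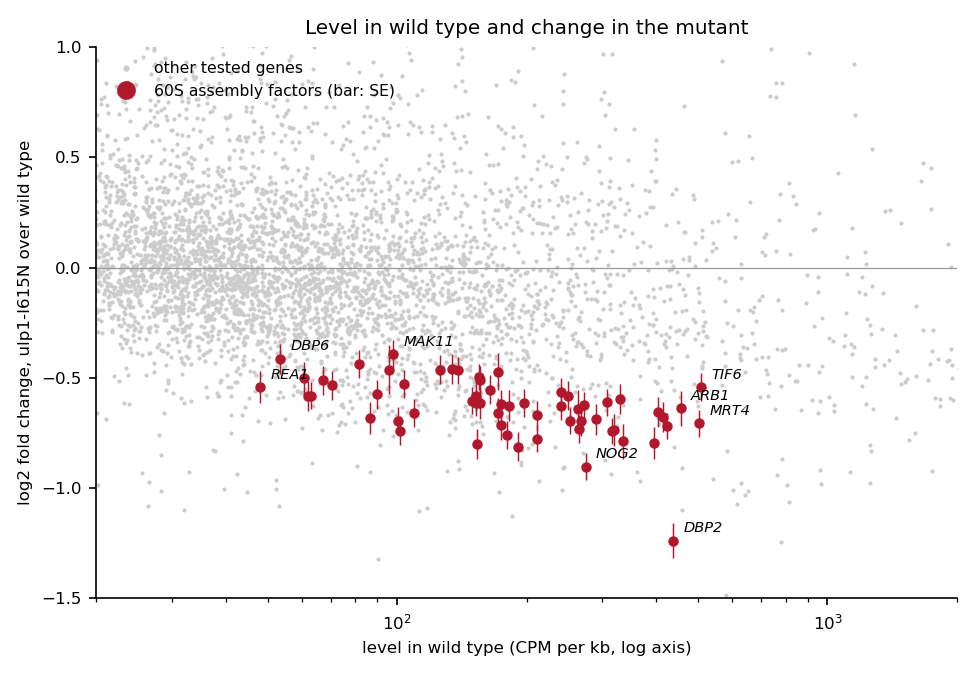
Log2 fold change (mutant over wild type) against the level in wild type in CPM per kb on a log axis, for the 60S assembly factors (circles with SE bars) and the other tested genes (grey points); 1877 of 6139 tested genes lie outside the axes. All members lie below 0, DBP2 lowest, and members at the right tend to lie lower than those at the left.

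Other genes of the pathway fell less uniformly. Of 33 further genes of 60S assembly and export, 22 were lower, 2 higher and 9 not called (median -0.46), again beside 24.3% lower and 26.4% higher over all tested genes. The largest falls were those of CGR1, a small nucleolar factor gene, at -0.90 ± 0.11, the ribosomal RNA methyltransferase genes RRP8 at -0.77 and BMT6 at -0.75, and SYO1, which escorts Rpl5 and Rpl11 into the nucleus, at -0.75. CGR1 had 51.8 and 43.7 CPM in the mutant and 98.3 and 79.2 CPM in wild type. The genes that were not called included the export receptors. CRM1 had 250.3 and 238 CPM in the mutant and 238 and 260.1 CPM in wild type (-0.03 ± 0.06, edgeR adjusted p = 0.741), MEX67 was at -0.06 ± 0.06 and MTR2 at -0.07 ± 0.07. Crm1, Mex67 and Mtr2 also carry other cargo, and whether this bears on their values was not tested. NMD3, whose product links Crm1 to the subunit, fell by 0.78. The uncalled genes were not only export receptors. AFG2 at -0.25 ± 0.10, LAS1 at -0.12 ± 0.08, RSA1 at -0.09 ± 0.08 and JJJ1 at -0.08 ± 0.10 were not called either. On chromosome X, where the median of all genes was 0.73, lie URB2 at 0.31 ± 0.07, MTR4 at 0.08 ± 0.07 and ALB1 at -0.06 ± 0.07, of which URB2 was called higher and the others were not called, although with library totals only MTR4 was called higher, at 0.22. URB1, whose product works in a complex with Urb2, lies on chromosome XI and fell by 0.54.

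Among 23 genes of the exosome and other nucleases that trim ribosomal RNA, 18 were lower, 0 were higher and 5 had no call, at a median of -0.32, beside 24.3% lower and 26.4% higher over all tested genes. The largest falls were those of the exonuclease gene REX4 at -0.73 ± 0.09, the exosome cofactor gene LRP1 at -0.60, the RNase III gene RNT1 at -0.55 and RAI1, the partner gene of the nuclear exonuclease Rat1, at -0.53 on the log2 scale. XRN1, the main cytoplasmic exonuclease of messenger RNA decay, was at 0.01 ± 0.07 and was not called. When only library totals were used for scaling, 11 of these genes were lower, beside 14.1% lower and 36.1% higher over all tested genes. Of the regulators known for this regulon, TOD6, a repressor that binds PAC, had 69.4 and 67.3 CPM in the mutant and 126 and 128 CPM in wild type (-0.90 ± 0.07, edgeR adjusted p = 1.72e-08). SFP1, an activator of ribosomal genes, fell by 0.30. DOT6, the paralog of TOD6, was at -0.01 ± 0.08, the RRPE-binding repressor gene STB3 at 0.16 ± 0.12 and the kinase gene SCH9 at -0.09 ± 0.07, and these were not called. With the replicate number as a block STB3 was called higher, at 0.17, and likewise without mutant replicate 2, at 0.29, and without wild-type replicate 1, at 0.31.

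**Figure D5:**
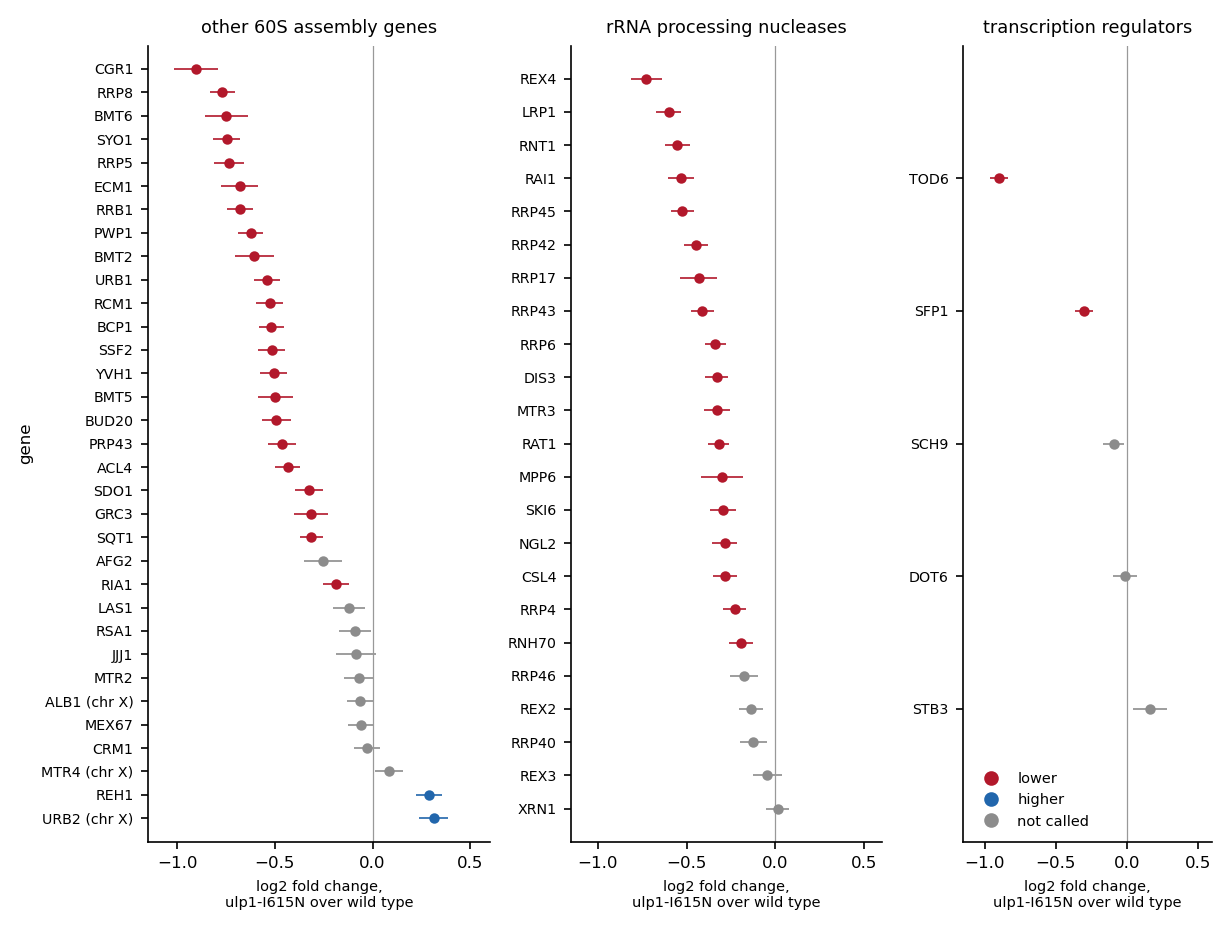
Log2 fold change (mutant over wild type) with SE bars for other 60S assembly genes, ribosomal RNA processing nucleases and regulators of the regulon, coloured by the edgeR call. The first panel runs from CGR1 at -0.90 to URB2 at 0.31, and its export receptor genes CRM1, MEX67 and MTR2 sit near 0.

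The members are scattered over 14 of 16 nuclear chromosomes, and 0 pairs of them are direct neighbours among tested protein-coding genes. For 28 members another gene starts in the opposite direction within 1000 bases, so that both share the region between them. Of these partners 15 were lower, 4 higher and 9 not called, with a median of -0.18, beside 24.3% lower and 26.4% higher over all tested genes. NSA2 and its partner LCP5, a gene of small-subunit assembly, were at -0.62 and -0.63, and MAK5 and its partner BMT2 at -0.74 and -0.60. Other pairs diverged: MAK21 was at -0.58 and the ubiquitin-conjugating enzyme gene UBC5 beside it at 1.01, and ARB1 was at -0.64 and the phosphatase gene PHM8 beside it at 0.78 (edgeR adjusted p = 3.46e-06 and 4.59e-05 for the partners). NOP7 was at -0.79, while its partner GTF1 was at 0.30. These partner genes were named after their values were seen. In all, the spans of 6 members overlap another feature (HAS1, NOP4, RRP14, RRP15, NOG2 and REI1). For NOG2 this is snR191, on the same strand and inside the intron, and for the others the feature lies on the opposite strand. Strand was ignored in the counting, and fragments over several genes were not counted. Fragments in a stretch shared with an antisense feature were therefore lost to both genes. Antisense reads over the rest of a member cannot be told apart from its own.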

How the data were processed

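Polyadenylated RNA of 2 ulp1-I615N and 2 wild-type libraries was sequenced with a directional kit, per the labels' protocols. The authors deposited raw fragment counts per gene, made with featureCounts 2.0.0 on read pairs without strand, multi-mapping or overlap options, per the file headers, so fragments that map to several places or over several genes were not counted. HISAT2 2.1.0, Subread 2.0.0 and sacCer3 appear in the submitters' processing notes, and the annotation version was not given in the sources used here. Of 7126 features 6048 matched a RefSeq R64 locus tag, 6036 with the same start and end.

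Columns were tied to samples by library name. Counts were tested with edgeR 4.0.16 in R 4.3.3 (quasi-likelihood F test, robust, TMM scaling, default filter with a minimum count of 10 and total of 15, Benjamini-Hochberg adjustment over all 6139 tested genes, threshold 0.05). CPM are counts after this scaling to a common library size, and SE were derived from the F statistics. Promoters were read from the R64 genome with Biopython 1.88. Member counts per library ran from 749 to 16064. Replicate libraries differed by more than sampling noise (chi-square per degree of freedom 8.42 in the mutant and 9.20 in wild type) and were kept apart. On data simulated for this comparison over 6139 genes (50 changed per fold), edgeR recovered 52% of genes changed 1.25-fold, 94% at 1.5-fold and 100% at 2-fold, with 9 calls among unchanged genes. The changed genes had a mean of 50 counts or more and went in random directions. In the real data a far larger part of the genes was called and chromosome X was raised, so these rates may not carry over.

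The members, the role groups and the other lists were chosen with earlier results of these data known. Per-library values are given for the 3 genes of each role group with the largest change and for members not called lower, of which there were 0; for each other list up to 4 called genes with the largest change are named. RRP15, MAK11, YTM1, CRM1, MEX67, MTR2, XRN1, URB1, AFG2, LAS1, RSA1 and JJJ1 are named as well, chosen after their values were seen. The same holds for the genes of chromosome X, the mating-type genes, the divergent partners and the genes whose call changed between settings. Alternatives were other scalings and filters, DESeq2 1.42.0, limma-voom (limma 3.58.1), glmTreat with a 1.2-fold threshold, thinning to the lowest library total, a replicate block and each library left out.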

Additional observations from a re-analysis of the deposited data

How the results depend on the processing

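All 60 members stayed lower, and 0 were higher, under each of the 15 alternatives except the test against a fold of 1.2, where 59 were lower and RRP15 was not called; no member changed direction. With library totals only, the median of the members was -0.49 and 866 of all tested genes were lower; this setting moved the median of all genes by 0.13. Against a fold of 1.2, 637 of all tested genes were lower and 910 higher, since that test asks for a larger change. With 1 library left out, 60 members were lower each time, 0 were higher, their median was -0.66 to -0.59, and 1240 to 1512 of all tested genes were lower and 1364 to 1539 higher; the lone library of a group is then assumed to vary like the other group. With the replicate number as a block, 60 members were lower at a median of -0.62, and 1657 of all genes were lower and 1776 higher. The labels do not say that the numbers pair samples; replicate differences of both groups correlated at 0.125 across all tested genes and 0.494 across the members. The members' share of counts was 0.721 of the wild-type share without chromosome X in the total and 0.687 without the 50 most abundant genes. The longer motifs matched 35 promoters for PAC and 18 for RRPE, against 53 and 43 for the cores. Calls of genes that are not members were less stable. Against a fold of 1.2 the calls of REH1, URB2, RPL7A, RPL24B, RPP0 and SFP1 ended. So did those of GRC3, SQT1, SDO1 and RIA1 among the other 60S assembly genes. Among the nucleases those of RRP6, DIS3, RRP4, SKI6, MTR3, CSL4, MPP6, RAT1, RNH70, NGL2 and RRP17 ended as well. With library totals only, GRC3, SDO1 and RIA1 lost their calls, and ULP1 was called (log2 fold change 0.26). RIA1, MPP6 and RNH70 also lost theirs with DESeq2. AFG2, not called with the main settings, was called lower with DESeq2, with its size factors in edgeR, with thinning and with the block. Without mutant replicate 2 AFG2 was at -0.39, and without wild-type replicate 1 also at -0.39. RRP46, a nuclease gene not called with the main settings, was called lower with the block, at -0.18. It was at -0.27 without mutant replicate 1 and at -0.23 without wild-type replicate 2. Of the regulators, STB3 was called higher with the replicate block (0.17), with mutant replicate 2 left out (0.29) and with wild-type replicate 1 left out (0.31), and 0 were higher otherwise. With 2 libraries a group and replicates that differed by more than counting error, the spread between libraries limits these values.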
